A study of Homo sapiens with 8 samples.

Results

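The genes described here make cholesterol and fatty acids, or control the making of them. They were chosen by gene symbol: 37 genes were listed, and 36 of them had at least 1 of the 47322 probes on the array, 53 probes in all, out of 20046 genes with a named probe. For FDFT1, which encodes squalene synthase, no probe carries the symbol in the annotation used, and it was not analysed here. Probes were tested where at least 1 array had a detection p of 0.01 or less, which left 46 probes of 35 genes, against 19550 probes of 11303 genes over the whole array. Gene expression was measured on Illumina HumanHT-12 v4 bead arrays in CD10-A375 and mock-A375, with 4 arrays of each group. CD10-A375 is the human melanoma line A375 transfected stably with a plasmid that drives the open reading frame of CD10, a membrane peptidase, selected with G418 and sorted for CD10 on the surface. Mock-A375 is the same line with the empty vector, also selected with G418, for which no sort is described. The comparison asks which genes CD10 overexpression alters in melanoma cells. The sources name a single transfected population in each group. The paper says of its experiments in general that they were repeated on different passages. It does not say whether the 4 arrays of a group come from separate cultures. The spread behind each p-value is therefore that of arrays within 1 population. The transfected population cannot be told apart from the CD10 transgene.

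Cholesterol is built from acetyl-CoA through mevalonate, squalene and a series of sterols, and fatty acids are built from the same acetyl-CoA and then elongated and desaturated. Transcription of most of these enzymes is driven by the SREBP factors, which are held in the endoplasmic reticulum with SCAP by INSIG proteins when sterols are plentiful and released to the Golgi for cleavage when sterols are scarce. LXR nuclear receptors sense oxysterols and act in the other direction on cell cholesterol, by promoting export and reducing uptake. Tumour cells often make much of their own lipid.

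Over the tested probes the correlation was 0.991 to 0.993 within groups and 0.962 to 0.967 between groups, with 15930 to 16937 probes detected per array. The 4 probes of MME, which encodes CD10, were not detected on any array (lowest detection p 0.114). Where these probes lie in the transcript is not given, and the plasmid carries the open reading frame alone, so MME does not check the labels. Of the melanoma and neural crest markers, SOX10 and VIM were detected on all 8 arrays, and S100B, PMEL and MLANA on none. None of 3 keratinocyte markers was detected. Of 4 fibroblast markers, LUM was detected on 2 mock-A375 arrays and COL1A2 on 1, and none on a CD10-A375 array. Summed over the probes of the 4 genes, fibroblast marker signal ran from 36.9 to 84.6 on the CD10-A375 arrays and from 114 to 181 on the mock-A375 arrays, and its part in the results was not tested. Of 3 leukocyte markers, CD14 was detected on all arrays and PTPRC and CD3E on none. In bulk RNA, fewer cells that express a gene and less of its RNA per cell cannot be told apart.

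The lipid synthesis genes did not move as a block. SQLE and HMGCS1 were clearly lower in CD10-A375, ACSS2 was clearly higher, and most of the other enzymes differed little. Each gene is represented by its brightest tested probe, and values are log2 signals after background correction and quantile normalization with an offset of 16, a scale on which changes of dim genes are understated. Among the 35 genes, CD10-A375 was higher for 5 and lower for 11, and 19 did not pass the test (limma with Benjamini-Hochberg adjustment over all 19550 probes, adjusted p under 0.05, two-sided). That is 45.7% of the genes, against 41.8% of all 11303 genes called by the same rule. Higher calls made up 14.3% against 19.9%, and lower calls 31.4% against 21.9%. The groups did not overlap for 14 of the 35 genes, 10 of them with CD10-A375 below, against 20.9% of all genes, and 4 with CD10-A375 above, against 19.2%, and for 40.0% of all genes in either direction. The median log2 fold change of the 35 genes was -0.13, against -0.03 over all genes. A fold over 2 in either direction was reached by 2 genes, SQLE and ACSS2, and by 5.84% of all genes. With the two-class SAM test that the methods name, on the same values and after Benjamini-Hochberg adjustment, 4 of the 35 genes passed, against 16.6% of all genes: SQLE and HMGCS1 lower, and ACSS2 and NR1H3 higher. By the threshold of the methods, an unadjusted SAM p under 0.01 with a fold over 2 in either direction, SQLE and ACSS2 passed, among 969 of the 19550 probes.

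**Figure D1:**
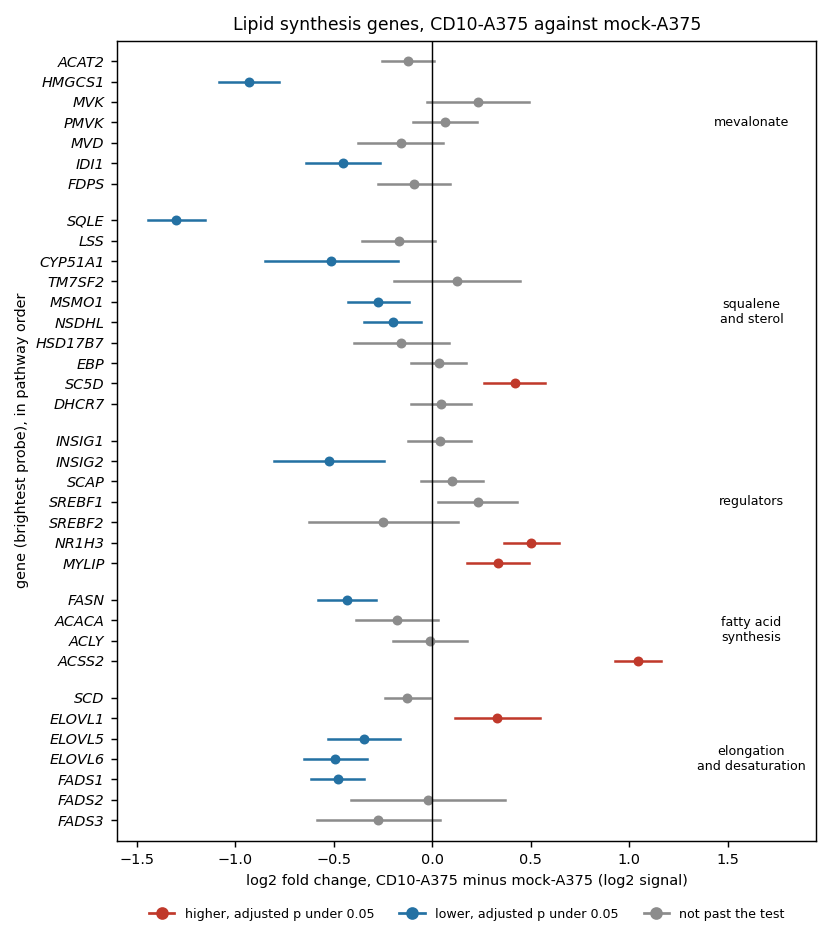
Log2 fold change (CD10-A375 minus mock-A375, log2 signal) of the 35 tested lipid synthesis genes at their brightest probe, in pathway order. Points are the fitted differences and lines their 95% confidence intervals from limma (n = 4 arrays per group), coloured by call. SQLE at -1.30 and ACSS2 at 1.04 lie farthest from 0, and 19 genes are grey.

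Of the 7 genes of the mevalonate part, HMGCS1 and IDI1 were lower and none was higher, 28.6% called against 41.8% of all genes. HMGCS1, the cytosolic synthase that joins acetyl-CoA to acetoacetyl-CoA at the entry to the pathway, had log2 signals of 10.71, 10.73, 10.64 and 10.72 on the CD10-A375 arrays and of 11.76, 11.75, 11.46 and 11.55 on the mock-A375 arrays. Every CD10-A375 array lay below every mock-A375 array, and the CD10-A375 values were close together. The difference on the log2 scale was -0.93 (SE 0.07, limma adjusted p = 7.5e-09), 1.91-fold lower. On the deposited linear scale, before any normalization between arrays, the HMGCS1 intensity was 1452.7 to 1878.9 in CD10-A375 and 3004.6 to 3469.0 in mock-A375.

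IDI1, the isomerase that interconverts the isoprenoid building blocks, had 7.92, 8.06, 8.16 and 8.01 in CD10-A375 and 8.51, 8.57, 8.58 and 8.31 in mock-A375. The groups did not overlap, and the log2 fold change was -0.45 (SE 0.09, limma adjusted p = 5.5e-04), a call that was lost with SAM (adjusted p = 0.0867). The other 5 genes of this part did not pass the test. The cytosolic thiolase gene ACAT2 had a log2 fold change of -0.12, with a 95% confidence interval of -0.26 to 0.01. The mevalonate kinase gene MVK had 0.23 (-0.03 to 0.49), the phosphomevalonate kinase gene PMVK 0.07 (-0.10 to 0.23), the decarboxylase gene MVD -0.16 (-0.38 to 0.05) and the farnesyl diphosphate synthase gene FDPS -0.09 (-0.27 to 0.09). These intervals leave out a change as large as that of HMGCS1.

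From squalene onward 10 genes were tested, of which 4 were lower and 1 was higher. Of all genes, 21.9% were lower and 19.9% were higher. SQLE, the squalene epoxidase, which catalyses a rate-limiting oxygen-dependent step, had the largest decrease of all 35 genes. Its log2 signals were 9.89, 9.94, 9.90 and 9.80 in CD10-A375 and 11.30, 11.11, 11.07 and 11.25 in mock-A375. The groups lay far apart relative to their own spread. CD10-A375 minus mock-A375 was -1.30 (SE 0.07, limma adjusted p = 3.6e-11), 2.46-fold lower, and its other probe had -1.24. The deposited intensity of SQLE was 816.9 to 1080.3 in CD10-A375 and 2078.6 to 2567.1 in mock-A375.

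CYP51A1, the lanosterol demethylase, had 6.11, 6.01, 6.46 and 6.50 in CD10-A375 and 6.32, 6.91, 6.89 and 7.00 in mock-A375. The groups overlapped at mock-A375 replicate 1, which lay apart from the other 3. The log2 fold change was -0.51 (SE 0.16, limma adjusted p = 0.0178). Its call was lost with SAM (adjusted p = 0.108) and without CD10-A375 replicate 2 (adjusted p = 0.0651 from limma), mock-A375 replicate 2 (0.0547) or mock-A375 replicate 4 (0.0624).

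MSMO1, the sterol methyl oxidase, had 9.38, 9.55, 9.47 and 9.48 in CD10-A375 and 9.62, 9.69, 9.83 and 9.84 in mock-A375 at its brightest probe. The log2 fold change was -0.27 (adjusted p = 0.0069 from limma). Its other 2 probes had 0.05 and -0.02 and did not pass the test, so the probes of MSMO1 disagree. With SAM the call was lost (adjusted p = 0.244). NSDHL, which takes part in the same removal of methyl groups, had 10.13, 10.40, 10.26 and 10.23 in CD10-A375 and 10.38, 10.48, 10.49 and 10.48 in mock-A375, with overlap. Its log2 fold change of -0.20 (adjusted p = 0.0296 from limma) is the least stable call among the 16. It was lost with SAM (adjusted p = 0.355), without normalization between arrays (0.0525 from limma), with no filter on dim probes (0.0582), with no intensity trend (0.0759), and without CD10-A375 replicate 1 or 4 or mock-A375 replicate 2, 3 or 4 (adjusted p = 0.0624 to 0.0955 from limma).

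SC5D, the sterol desaturase that makes dehydrocholesterol late in the pathway, was the sterol enzyme gene that was higher. It had 10.10, 9.98, 10.13 and 9.94 in CD10-A375 and 9.70, 9.59, 9.68 and 9.50 in mock-A375, and the groups did not overlap. The log2 fold change was 0.42 (SE 0.07, limma adjusted p = 1.7e-04), lost with SAM (adjusted p = 0.1003). The lanosterol synthase gene LSS had -0.17 (95% confidence interval -0.36 to 0.01), the sterol reductase gene TM7SF2 0.12 (-0.20 to 0.44), HSD17B7, the ketosteroid reductase of this stretch, -0.16 (-0.40 to 0.09), the sterol isomerase gene EBP 0.03 (-0.11 to 0.17) and DHCR7, which completes cholesterol, 0.04 (-0.11 to 0.20). None of these 5 passed the test, and the 2 probes of DHCR7 gave 0.04 and 0.12.

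Over mevalonate and sterol steps together, 6 of 17 genes were lower and 1 was higher, that is 35.3% and 5.88%, against 21.9% and 19.9% of all genes. The median log2 fold change of the 17 genes was -0.16. With SAM 2 were lower and none was higher, where 16.6% of all genes were called in either direction. Of the enzymes that were lower, MSMO1 and NSDHL act together in the removal of methyl groups, a short way after CYP51A1. Between HMGCS1, IDI1, SQLE and CYP51A1 lie steps whose tested genes did not pass the test.

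**Figure D2:**
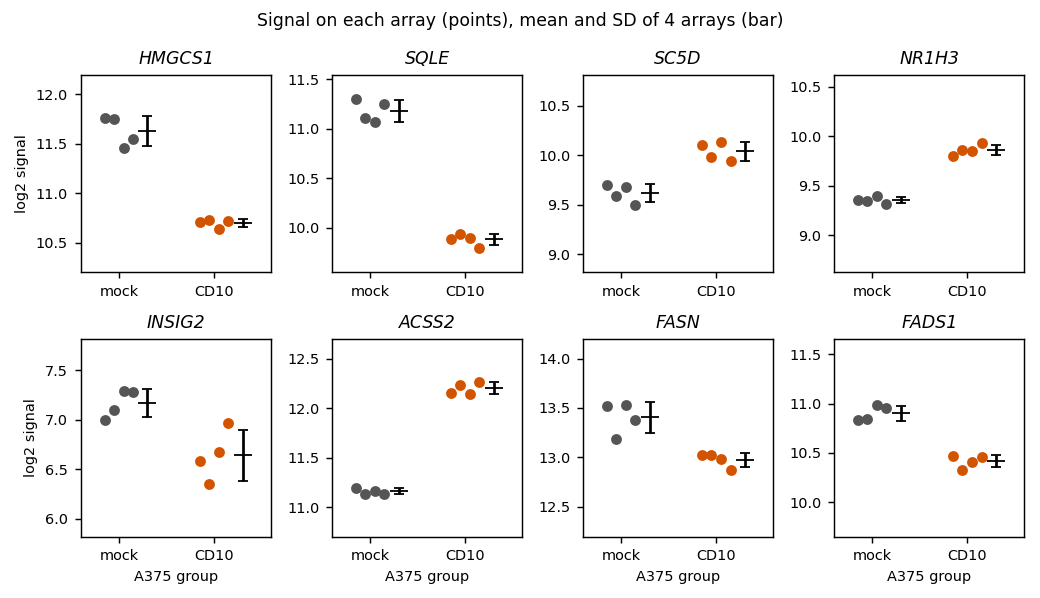
Log2 signal of 8 lipid synthesis genes on each array (points), with the mean and SD of 4 arrays beside them; each panel spans the same range of 2 log2 units. All 8 were picked from genes whose CD10-A375 and mock-A375 arrays do not overlap, and the gap is widest for SQLE and ACSS2. The groups overlap for 21 of the 35 tested genes, and do not overlap for 40.0% of all genes.

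Promoters are shown for the 5 genes with the largest called changes that have one in the table used, to set genes of opposite direction side by side. They come from RefSeq on GRCh38.p14 and run over the 250 bases before the start that the table uses, 5′ to 3′ along the gene. For 4 of the 5 genes the window ends at the outer end of the annotated gene, whereas for CYP51A1 it lies within the annotated gene, before a start further in. Capitals mark matches on either strand to the sterol regulatory element TCACNCCAC, the E-box CACGTG, the CCAAT box that NF-Y binds (ATTGG on the other strand) and the GC box GGGCGG that Sp1 binds (CCGCCC on the other strand). HMGCS1 and CYP51A1 were lower, INSIG2 was lower, and ACSS2 and NR1H3 were higher.
HMGCS1, chr5:43313413-43313662 of GRCh38.p14, minus strand: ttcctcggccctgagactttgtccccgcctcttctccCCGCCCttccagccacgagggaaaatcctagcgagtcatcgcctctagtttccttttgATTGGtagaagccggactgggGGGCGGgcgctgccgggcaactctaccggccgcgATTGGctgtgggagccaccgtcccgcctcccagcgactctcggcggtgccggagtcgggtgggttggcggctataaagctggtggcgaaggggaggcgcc
CYP51A1, chr7:92134478-92134727 of GRCh38.p14, minus strand: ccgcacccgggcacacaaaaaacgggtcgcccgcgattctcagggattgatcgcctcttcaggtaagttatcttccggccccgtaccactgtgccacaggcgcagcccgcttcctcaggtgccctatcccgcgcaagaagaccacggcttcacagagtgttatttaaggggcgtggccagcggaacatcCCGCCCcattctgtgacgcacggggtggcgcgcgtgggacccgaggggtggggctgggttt
INSIG2, chr2:118088221-118088470 of GRCh38.p14, plus strand: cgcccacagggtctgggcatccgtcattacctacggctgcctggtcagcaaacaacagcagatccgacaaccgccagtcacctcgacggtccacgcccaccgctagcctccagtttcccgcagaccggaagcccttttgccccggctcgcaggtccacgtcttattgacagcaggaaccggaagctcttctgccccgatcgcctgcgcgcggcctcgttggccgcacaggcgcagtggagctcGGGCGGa
ACSS2, chr20:34874739-34874988 of GRCh38.p14, plus strand: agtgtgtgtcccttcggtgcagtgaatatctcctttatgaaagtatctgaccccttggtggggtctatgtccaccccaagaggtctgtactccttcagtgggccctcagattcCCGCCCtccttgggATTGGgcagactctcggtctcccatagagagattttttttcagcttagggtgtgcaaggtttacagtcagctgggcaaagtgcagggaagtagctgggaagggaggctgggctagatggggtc
NR1H3, chr11:47248050-47248299 of GRCh38.p14, plus strand: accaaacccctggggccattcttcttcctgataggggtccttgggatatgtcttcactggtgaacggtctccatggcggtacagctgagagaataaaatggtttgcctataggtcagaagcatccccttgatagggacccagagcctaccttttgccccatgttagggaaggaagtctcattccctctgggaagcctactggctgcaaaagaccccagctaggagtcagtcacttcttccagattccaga
HMGCS1, the lower gene with the larger change, holds 2 CCAAT boxes and 2 GC boxes in this window. ACSS2, the higher gene, holds 1 CCAAT box and 1 GC box. CYP51A1 and INSIG2 hold 1 GC box each, and NR1H3 holds none of these letters.

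Of the 37 genes, 33 have a promoter in the table, which does not include ACAT2, FDFT1, SQLE and FASN. A CCAAT box was found in 22 of the 33 (66.7%) and in 33.0% of 27305 promoters of the same length. A GC box was found in 29 (87.9%) and in 42.3% of all promoters, and an E-box in 4 (12.1%) and in 6.49%. The sterol regulatory element as spelled here was found in 1 of them, SREBF2, and in 0.875% of all promoters. By call, a CCAAT box was found in 4 of 9 lower genes, 4 of 5 higher genes and 13 of 18 genes that did not pass the test. A GC box was found in 7 of 9, 4 of 5 and 17 of 18. These counts are descriptions of letters in a window and not of bound sites. The 27305 promoters include those of genes that were not tested on the array. Shares among tested genes alone were not computed, so the differences cannot be read as particular to lipid genes.

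Of the regulators, 7 were tested, of which 2 were higher and 1 was lower, 42.9% called against 41.8% of all genes. The SREBP genes themselves did not pass the test. SREBF1, whose products favour fatty acid synthesis, had 9.19, 9.21, 9.05 and 8.91 in CD10-A375 and 8.98, 8.80, 8.63 and 9.02 in mock-A375. The groups overlapped. SREBF1 had a log2 fold change of 0.23 (SE 0.10, limma adjusted p = 0.0686), and it passed without CD10-A375 replicate 4 or mock-A375 replicate 4 (adjusted p = 0.0333 to 0.0365 from limma). Its other tested probe had 0.17.

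SREBF2, whose product favours cholesterol synthesis, was near the detection limit, detected on 1 CD10-A375 and 2 mock-A375 arrays. It had 5.40, 5.78, 5.62 and 5.08 in CD10-A375 and 5.65, 5.76, 5.59 and 5.88 in mock-A375, with a 95% confidence interval of the difference of -0.63 to 0.13. SCAP, the escort of the SREBP proteins, had 11.48, 11.60, 11.44 and 11.27 in CD10-A375 and 11.41, 11.35, 11.20 and 11.45 in mock-A375. The groups overlapped, with an interval of -0.06 to 0.26.

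The retention genes INSIG1 and INSIG2 gave different results. INSIG1, itself a well known SREBP target, had 11.10, 11.44, 11.25 and 11.25 in CD10-A375 and 11.40, 11.17, 11.14 and 11.20 in mock-A375, a log2 fold change of 0.04 with a 95% confidence interval of -0.12 to 0.20. Its sign turned without normalization between arrays (-0.01) and at its other probe (-0.14), and no value passed the test. INSIG2 had 6.58, 6.35, 6.67 and 6.97 in CD10-A375 and 7.00, 7.10, 7.29 and 7.28 in mock-A375. The highest CD10-A375 value was just below the lowest mock-A375 value. The log2 fold change was -0.52 (SE 0.13, limma adjusted p = 0.0042), lost with SAM (adjusted p = 0.0808). The difference between the INSIG1 and INSIG2 changes was not tested.

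NR1H3, which encodes LXR alpha, had 9.80, 9.86, 9.85 and 9.93 in CD10-A375 and 9.36, 9.35, 9.40 and 9.32 in mock-A375. The groups were well separated and each was tight. NR1H3 had a log2 fold change of 0.50 (SE 0.07, limma adjusted p = 8.6e-06), 1.42-fold higher, and it passed with SAM (adjusted p = 0.04535). MYLIP, an LXR target that encodes the ubiquitin ligase IDOL, which lowers the uptake of cholesterol, had 9.58, 9.64, 9.76 and 9.52 in CD10-A375 and 9.39, 9.21, 9.35 and 9.22 in mock-A375. The groups did not overlap, and the log2 fold change was 0.33 (SE 0.08, limma adjusted p = 0.0020), lost with SAM (adjusted p = 0.173). STARD4, a sterol carrier, has 1 probe, which was not detected on any array.

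Of the 11 fatty acid genes, 2 were higher and 4 lower, that is 18.2% and 36.4%, against 19.9% and 21.9% of all genes, with a median log2 fold change of -0.18. ACSS2, the cytosolic enzyme that makes acetyl-CoA from acetate, had the largest increase of the 35 genes. It had 12.16, 12.24, 12.15 and 12.27 in CD10-A375 and 11.20, 11.14, 11.17 and 11.14 in mock-A375. The separation was many times the spread within either group. ACSS2 had a log2 fold change of 1.04 (SE 0.06, limma adjusted p = 5.4e-11), 2.06-fold higher. The other tested probes had 1.06 and 0.92, and 1 further probe was not detected. The deposited intensity of ACSS2 was 4164.6 to 5411.6 in CD10-A375 and 2140.9 to 2445.1 in mock-A375.

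The other source of cytosolic acetyl-CoA is ACLY, the ATP citrate lyase, which had 11.91, 12.08, 12.13 and 11.68 in CD10-A375 and 12.08, 11.83, 11.85 and 12.09 in mock-A375. Its log2 fold change at the brightest probe was -0.01 (95% confidence interval -0.20 to 0.18), whereas its other probe was lower, with -0.27 (adjusted p = 0.0379 from limma). ACACA, the acetyl-CoA carboxylase that commits acetyl-CoA to fatty acids, had -0.18 (-0.39 to 0.03) at the brightest probe. It passed without mock-A375 replicate 3 (-0.28, limma adjusted p = 0.0193), and its other tested probe was lower, with -0.23 (adjusted p = 0.0376 from limma). FASN, the fatty acid synthase, had 13.02, 13.02, 12.98 and 12.87 in CD10-A375 and 13.52, 13.19, 13.53 and 13.38 in mock-A375. The groups did not overlap, and the log2 fold change was -0.43 (SE 0.07, limma adjusted p = 8.3e-05), lost with SAM (adjusted p = 0.102).

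Of the 7 elongase and desaturase genes, 3 were lower and 1 was higher, that is 42.9% and 14.3%, against 21.9% and 19.9% of all genes. ELOVL6, which elongates palmitate, had 10.20, 10.36, 10.48 and 10.14 in CD10-A375 and 10.83, 10.72, 10.87 and 10.75 in mock-A375, a log2 fold change of -0.49 (SE 0.08, limma adjusted p = 4.9e-05). The groups did not overlap, and its other probe was also lower, with -0.22 (adjusted p = 0.0198 from limma). FADS1, a desaturase of polyunsaturated fatty acids, had 10.47, 10.33, 10.41 and 10.46 in CD10-A375 and 10.83, 10.84, 10.98 and 10.95 in mock-A375. Again the groups did not overlap, with a log2 fold change of -0.48 (SE 0.06, limma adjusted p = 1.0e-05).

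ELOVL5, which elongates polyunsaturated fatty acids, had 8.77, 8.62, 8.87 and 8.70 in CD10-A375 and 9.17, 8.87, 9.15 and 9.15 in mock-A375, with a log2 fold change of -0.35 (adjusted p = 0.0039 from limma). The groups did not overlap, though CD10-A375 replicate 3 and mock-A375 replicate 2 are equal at 2 decimals. ELOVL1, the elongase of very long saturated chains, was higher, with 8.39, 8.06, 8.29 and 8.26 in CD10-A375 and 7.88, 8.12, 7.99 and 7.69 in mock-A375. The groups overlapped. Its log2 fold change of 0.33 (adjusted p = 0.0173 from limma) did not pass without normalization between arrays (adjusted p = 0.0650), without CD10-A375 replicate 1 (0.0546) or without mock-A375 replicate 4 (0.0679). With SAM the calls of ELOVL6 (adjusted p = 0.0690), FADS1 (0.0606), ELOVL5 (0.173) and ELOVL1 (0.208) were all lost.

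SCD, the stearoyl-CoA desaturase that makes monounsaturated fatty acids, had 12.54, 12.51, 12.55 and 12.58 in CD10-A375 and 12.64, 12.61, 12.67 and 12.76 in mock-A375. The arrays of the groups did not overlap, but the difference was small, -0.13, and did not pass the test (adjusted p = 0.0829 from limma). FADS2 and FADS3 are neighbours of FADS1 on the chromosome and were dim. FADS2 was detected on 1 of the 8 arrays and had a 95% confidence interval of the difference of -0.41 to 0.37. FADS3 was detected on 1 CD10-A375 and 4 mock-A375 arrays, with a log2 fold change of -0.27 (-0.58 to 0.04). Its direction was the same under every alternative tried, and it passed as lower when limma was run with no intensity trend (adjusted p = 0.0487).

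**Figure D3:**
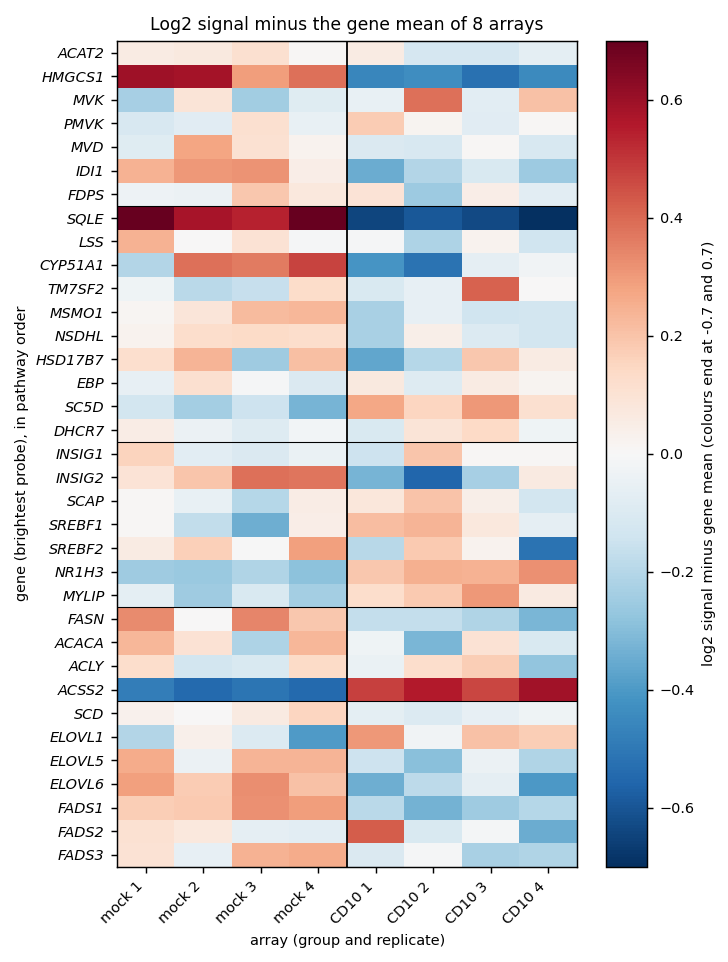
Log2 signal of each of the 35 genes minus its own mean over the 8 arrays, with genes in pathway order from top to bottom and arrays grouped from left (mock-A375) to right (CD10-A375). Colours end at -0.7 and 0.7, and SQLE, HMGCS1 and ACSS2 show the sharpest change at the line between the groups.

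Genes around these pathways were listed as well, with earlier results of these data known, and 1 among the regulators of SREBP stood out. Of 7 tested genes of SREBP processing and sterol-regulated degradation, 1 was higher and 1 was lower, 28.6% called against 41.8% of all genes. PAQR3, which tethers SCAP and SREBP at the Golgi, had a log2 signal of 6.82 ± 0.07 (SD, n = 4) in CD10-A375 and 8.48 ± 0.11 (SD, n = 4) in mock-A375, 3.18-fold lower, a log2 fold change of -1.67 (adjusted p = 7.8e-11 from limma). The protease genes MBTPS1 (0.06) and MBTPS2 (-0.09), whose products cleave SREBP, did not pass the test. ERLIN2, which takes part in the degradation of sterol-regulated proteins, had 0.31 (adjusted p = 0.0214 from limma). Its call was lost without CD10-A375 replicate 1 (0.0507), CD10-A375 replicate 2 (0.0630) or mock-A375 replicate 2 (0.0560), without normalization between arrays (0.106), with no filter on dim probes (0.0579) and with SAM (0.191).

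Genes of sterol esters, traffic and oxysterols were more often higher, in a list written with earlier results of these data known. Of 16 tested, 9 were higher and 1 was lower, that is 56.2% and 6.25% against 19.9% and 21.9% of all genes, with a median log2 fold change of 0.25. Among probes detected on all 8 arrays, which leaves out SOAT2, 8 were higher and 1 was lower, where 44.6% of all genes were called. Without normalization between arrays 5 were higher and 1 was lower, where 35.8% of all genes were called in either direction. With SAM 5 were higher and 1 was lower, where 16.6% of all genes were called. GRAMD1B, which carries cholesterol from the plasma membrane to the endoplasmic reticulum, had 9.39 ± 0.02 (SD, n = 4) in CD10-A375 and 7.18 ± 0.02 (SD, n = 4) in mock-A375, 4.61-fold higher (log2 fold change 2.21, adjusted p = 8.8e-14 from limma). The genes NPC2 and NPC1, which move cholesterol out of lysosomes, had 0.91 and 0.64 (adjusted p = 9.4e-10 and 1.1e-06 from limma). SOAT2, an enzyme that esterifies cholesterol, was detected on no mock-A375 array and passed the detection filter through CD10-A375 alone. For SOAT2, CD10-A375 was at least 1.45-fold higher. This bound sets the CD10-A375 mean against the lowest detected signal of each mock-A375 array, or the probe's own where that was higher. The limma adjusted p of 1.0e-05 for SOAT2 belongs to the log2 difference of 1.23, which uses undetected mock-A375 signals. It does not test the bound. CYP27A1, which makes an oxysterol that LXR binds, had 0.65 (adjusted p = 6.6e-06 from limma). The gene that was lower was LIPA, the lysosomal acid lipase, with -0.59 (adjusted p = 5.3e-07 from limma).

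Of 14 tested genes of fatty acid activation and glycerolipid synthesis, 7 were higher and 2 lower, 64.3% against 41.8% of all genes called. Their median log2 fold change was 0.22, and this list too was written with earlier results of these data known. Among probes detected on all 8 arrays, which leaves out DGAT2, 6 were higher and 2 lower, where 44.6% of all genes were called. With SAM 4 were higher and none was lower, where 16.6% of all genes were called. LPIN2, a phosphatidate phosphatase gene, had 9.30 ± 0.08 (SD, n = 4) in CD10-A375 and 7.62 ± 0.22 (SD, n = 4) in mock-A375, 3.20-fold higher (log2 fold change 1.68, adjusted p = 2.1e-10 from limma). PLIN2, which coats lipid droplets, had 13.71 ± 0.03 and 12.50 ± 0.08 (SD, n = 4 each), 2.31-fold higher (adjusted p = 5.2e-12 from limma). GPAT3, which starts glycerolipid synthesis, was 2.10-fold higher (adjusted p = 1.7e-09 from limma). DGAT1 and DGAT2 encode enzymes of the last step of triglyceride synthesis, and the difference between their changes was not tested. DGAT1 had -0.47 (adjusted p = 5.2e-04 from limma). DGAT2 was detected on 2 CD10-A375 and no mock-A375 arrays, and so passed the detection filter through CD10-A375 alone. It was called higher with an adjusted p of 0.0391 from limma, though its groups overlapped, and it is not set against DGAT1 here. The DGAT2 call was lost without CD10-A375 replicate 2 (0.103) or 4 (0.162) or mock-A375 replicate 1 (0.0869), 2 (0.0954) or 3 (0.0556) and with SAM (0.0843), and that of DGAT1 with SAM (0.0696).

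**Figure D4:**
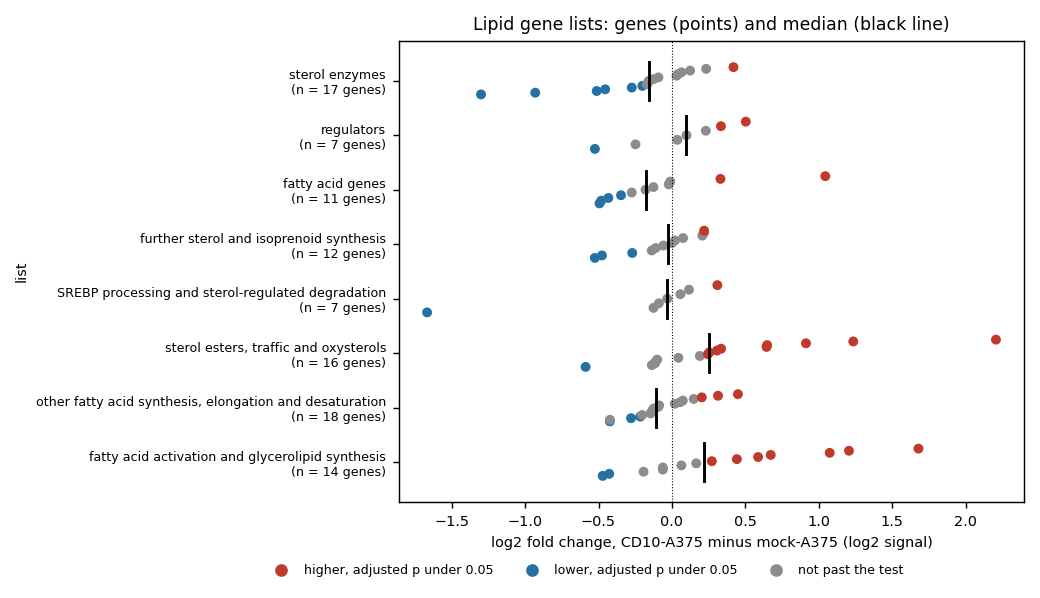
Log2 fold change (CD10-A375 minus mock-A375, log2 signal) of the tested genes of the 3 groups of lipid synthesis genes and of 5 surrounding lists, 1 point per gene at its brightest probe, coloured by call, with the list median as a black line. The median is -0.16 for sterol enzymes, 0.25 for sterol esters, traffic and oxysterols and 0.22 for fatty acid activation and glycerolipid synthesis.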

How the data were processed

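RNA of CD10-A375 and mock-A375 was measured on Illumina HumanHT-12 v4 arrays, 4 per group, grouped by their titles. The authors deposited, compiled in GenomeStudio (version 1 in the submitters' processing notes), background-subtracted intensity values on a linear scale without normalization between arrays. The authors also deposited a detection p-value for each probe and array, and the same intensities after average normalization, with factors of 0.883 to 1.04 per array; floor and detection filter of the methods were not applied there.

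Values were processed in limma (version 3.58.1, R version 4.3.3): normexp background correction based on detection p-values, quantile normalization, then log2 with 16 added. Probes with a detection p over 0.01 on all 8 arrays were left out (27772 of 47322). Groups were compared with an intensity trend and Benjamini-Hochberg adjustment over all tested probes. SAM was written anew, with all 70 splits of the arrays, since the package of the methods was not installed. The splits include the true one and its mirror image, so the adjusted p of SAM cannot fall below 0.0286. Both tests were first tested on simulated data. Of 67 probes changed 1.5-fold, limma recovered 37 and SAM 28, and of 67 changed 2-fold, 58 and 54. The simulation changed only a small share of the 19550 probes, whereas 36.6% were called in the data. Adjusted p-values depend on that share, so these counts do not give the power of either test here. The number of arrays limits the precision.

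In the platform annotation 30113 probes have a single symbol, 8 have more than 1 and 17201 have none; only single symbols were used. Looked up in RefSeq by Entrez ID, no symbol needed updating. The members and lists were chosen with earlier results of these data known. All members are named. Of the other lists, up to 3 genes with the largest change past the test are named, and beyond this rule MBTPS1, MBTPS2, NPC1, CYP27A1, LIPA, DGAT1 and DGAT2 were chosen after their values were seen. Alternatives covered normalization, background, offset, filter, test, trend, replicate block, probe choice and leaving out each array.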

Additional observations from a re-analysis of the deposited data

Results flagged for a closer look

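Of 70 sets of 4 arrays, 1 for each tested gene and group, 4 held an array that stood apart from the other 3 by more than Dixon's critical value (95% level, 4 values) for the gap over the range. Chance flags about 1 in 20 such sets. In mock-A375, the lowest array was replicate 1 for CYP51A1, at 6.32 against 6.89 for the next (gap over range 0.843), and for NSDHL, at 10.38 against 10.48 (0.891). For ELOVL5 the lowest mock-A375 array was replicate 2, at 8.87 against 9.15 (0.922). For MVD the highest CD10-A375 array was replicate 3, at 7.33 against 7.22 (0.865). No explanation was tested for any of these.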

How the results depend on the processing

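Of the 16 genes called, 13 kept their call and direction under every alternative but SAM. SAM lost 12 of the 16 and kept SQLE, HMGCS1, ACSS2 and NR1H3. With SAM 2 genes were higher and 2 lower, among them 0 higher and 2 lower sterol enzyme genes, 1 higher and 0 lower regulators, and 1 higher and 0 lower fatty acid genes. In the surrounding lists SAM gave 5 higher genes of sterol esters, traffic and oxysterols, and 4 higher and 0 lower of fatty acid activation and glycerolipid synthesis. SAM called 16.6% of all genes, against 41.8% called by limma. The test itself is what differs there, since the values were the same. Without normalization between arrays 1 fatty acid gene and 5 genes of sterol esters, traffic and oxysterols were higher. In that setting 35.8% of all genes were called in either direction, and the cause was not tested. Leaving out 1 array gave 4 to 6 higher and 9 to 11 lower genes and a median log2 fold change of -0.15 to -0.11. By group this was 1 to 1 higher and 4 to 6 lower sterol enzyme genes, 2 to 3 higher and 1 to 1 lower regulators, and 1 to 2 higher and 4 to 5 lower fatty acid genes. In the surrounding lists it was 7 to 9 higher and 1 to 1 lower, and 6 to 7 higher and 2 to 2 lower. Fatty acid genes fell to 1 higher without CD10-A375 replicate 1 or mock-A375 replicate 4, through ELOVL1. The direction turned, with no call on either side, for EBP with the authors' average normalization (-0.0013) and without normalization between arrays (-0.024), for DHCR7 (-0.0063) and INSIG1 (-0.014) without normalization between arrays, and for INSIG1 at its other probe (-0.14). It also turned with 1 array left out, where INSIG1 ran from -0.025 to 0.093, ACLY from -0.072 to 0.081 and FADS2 from -0.049 to 0.091. The alternatives for the surrounding lists were chosen after the data were seen. Array slides are not named in the files, so a slide block was not run.

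The replicate numbers of the titles share no described culture or day. Deviations of arrays with the same number correlated at -0.01, -0.05, -0.19 and 0.03, and 1 of 8 arrays correlated best with its own number. With the replicate block 6635 probes were called in place of 7162, and the lipid synthesis genes gave 5 higher and 11 lower as without it. Signal over background was lowest for SREBF2 and FADS2, each detected on 3 or fewer of the 8 arrays. FADS3, also dim, was called lower with no intensity trend (-0.27, adjusted p = 0.0487 from limma) and under no other alternative.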

Other observations

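Of 12 tested genes of further sterol and isoprenoid synthesis, 1 was higher and 3 were lower (limma, adjusted p under 0.05), 33.3% against 41.8% of all genes called. COQ2, which joins the ring and the isoprenoid tail of ubiquinone, and PDSS1, which helps to make that tail, had log2 fold changes of -0.53 (adjusted p = 4.1e-05 from limma) and -0.27 (adjusted p = 0.0110 from limma). Both calls were lost with SAM (adjusted p = 0.0514 and 0.262). PGGT1B, a subunit of an enzyme that attaches an isoprenoid lipid to proteins, had -0.48 (adjusted p = 0.0475 from limma), a call lost under 11 of 17 alternatives. Leaving out CD10-A375 replicate 1, 2 or 4 or mock-A375 replicate 1 or 4 gave adjusted p = 0.0752 to 0.152 for it.

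Of 18 tested genes of other fatty acid synthesis, elongation and desaturation, 3 were higher and 3 lower, 33.3% called against 41.8% of all genes. ELOVL4, an elongase of very long chains, had 0.45 (adjusted p = 8.1e-04 from limma), and HSD17B12, the reductase that works with the elongases, had -0.42 (adjusted p = 5.5e-05 from limma). MID1IP1, which promotes acetyl-CoA carboxylase activity, had 0.31 (adjusted p = 0.0085 from limma), a call lost without normalization between arrays (adjusted p = 0.0754). With SAM all 3 calls were lost (adjusted p = 0.0916, 0.101 and 0.205).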
